A study of Mus musculus with 18 samples.

Results

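Lysosomal sphingolipid hydrolases and their activators were followed in RNA-Seq counts of the ventral dentate gyrus as 8 genes fixed by symbol: Hexa, Gm2a, Glb1, Neu1, Galc, Arsa, Asah1 and Psap. All 8 were among the 34620 genes listed in the count files, and all 8 were among the 17421 genes with enough counts to be tested. The data are 6 libraries, and the values below are CPM, counts corrected for library size with TMM factors.
The libraries were made from the granule cell layer microdissected from the ventral hippocampus of adult Swiss Webster males, 8 to 12 weeks old, 2 libraries each from WT, F1 and F2. All of these males were genetically WT. WT males had WT mothers and grandmothers. F1 males had 5HT1A-/+ mothers and grandmothers, which lack 1 copy of the serotonin 1A receptor gene. Per the methods of the study, F1 males came from crosses between heterozygous parents, so their fathers were 5HT1A-/+ too. Their littermates included heterozygous and knockout pups. F2 males had F1 mothers, WT fathers and a 5HT1A-/+ grandmother on the maternal side. The WT lineage was bred apart from the lineage of the heterozygous mothers, the strain is outbred, and the number of animals behind a library is not given in the sources used here, so the p-values measure the spread between libraries. The comparisons ask whether expression in offspring and grand-offspring of receptor-deficient mothers differed from WT.

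Sphingolipids of the plasma membrane are taken up into the lysosome and are cut there from the outer sugar inward, until ceramide is left and is split into sphingosine and a fatty acid. The soluble enzymes that do this work need small helper proteins, the saposins and the GM2 activator, which lift the lipid out of the membrane or present it to the enzyme. Inherited loss of these enzymes or helpers causes the sphingolipidoses, storage diseases with severe effects on neurons and on myelin. Hexa encodes the alpha subunit of beta-hexosaminidase, and Gm2a encodes the activator that this enzyme needs to degrade ganglioside GM2. Glb1 encodes beta-galactosidase and Neu1 the lysosomal sialidase, which are held in a complex with protective protein. Galc encodes galactosylceramidase and Arsa arylsulfatase A, which act on the myelin lipids galactosylceramide and sulfatide. Asah1 encodes acid ceramidase, and Psap encodes prosaposin, the precursor of saposins A to D.

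Of the 8 genes, Gm2a passed the threshold, in F2 but not in F1. It was higher in F2 than in WT by 33.1%, and the value in F1, 31.6% above WT, lay just outside the threshold. Psap was 26.5% above WT in F1 and 16.1% above WT in F2, without passing it. Glb1 was above both WT libraries in every F1 and F2 library, and Galc was below both, with differences that did not pass the test. Hexa, Neu1, Arsa and Asah1 had values in F1 and F2 that overlapped those of WT. The threshold was an adjusted p (q) under 0.01 in the exact test of edgeR over all tested genes.

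In F1, 0 of the 8 genes passed the threshold, where 12.3% of all tested genes did, 3.77% higher and 8.54% lower. In F2, 1 of the 8 passed, where 12% of all tested genes did, 3.86% higher and 8.10% lower. A share of this size is near that of the genes at large and is no result about the 8 genes as a group. At q under 0.05, Gm2a and Psap passed in F1, 2 of 8 against a background of 20.8%, and Gm2a passed in F2, 1 of 8 against 20.7%. By edgeR's quasi-likelihood test at q under 0.01, 0 of the 8 passed in F1 or in F2, where 5.91% and 5.72% of all genes did. That test gave an unadjusted p under 0.05 for 2 of the 8 genes in F1, Gm2a and Psap, and for 2 in F2, Gm2a and Glb1, where 33.3% and 33.2% of all genes had one. The exact test gave such a p for 2 genes in F1 and for 1 in F2, where 32.6% and 32.4% of all genes had one. DESeq2 called Psap in F1, among 1635 genes called of 17421. The median log2 fold change of the 8 genes was -0.01 in F1 and -0.05 in F2, where the median over all tested genes was 0.0094 and -0.0004.

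The genes lie on 7 chromosomes, and all positions are those of GENCODE M1 on mm9. Hexa (chr9:59387474-59412914, plus strand) and Glb1 (chr9:114310194-114383495, plus strand) share chromosome 9. Gm2a lies at chr11:54911617-54926531 on the plus strand, Psap at chr10:59740375-59765345 on the plus strand and Neu1 at chr17:35068198-35072898 on the plus strand. Galc lies at chr12:99440514-99497669, Arsa at chr15:89302907-89307856 and Asah1 at chr8:42425551-42460127, all on the minus strand. All 8 are protein-coding. Arsa shares 690 exon bases with a long non-coding RNA gene on the opposite strand, and since no strand is stated for the counting, reads of the pair in that stretch cannot be told apart. A short second entry under the name Glb1 shares 165 exon bases with the longer one, and whether its reads are part of the Glb1 count is not given in the sources used here.

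RefSeq promoter windows (GRCm38.p6, a later build than the one of the counts) were found for 7 of the 8 genes, and Psap has a pair of start sites in that table. They are shown for the 3 genes whose F1 and F2 libraries all lay above WT, chosen by these values. Of them only Gm2a passed the threshold, in F2. Arsa is shown too, which holds the same motif as Glb1 and whose groups overlapped. The downstream window of Psap is not shown, and Asah1 had no window. Each line gives the 250 bases before the start site, 5′ to 3′ on the strand of the gene. Capitals mark the motif CACGTG, the E-box core read by TFEB and related lysosomal regulators.
Gm2a, chr11:55097735-55097984, plus strand: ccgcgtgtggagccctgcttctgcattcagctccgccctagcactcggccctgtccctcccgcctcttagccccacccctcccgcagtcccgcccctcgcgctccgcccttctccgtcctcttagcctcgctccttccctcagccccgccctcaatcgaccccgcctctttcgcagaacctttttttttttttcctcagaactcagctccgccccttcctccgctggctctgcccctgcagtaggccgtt
Glb1, chr9:114400828-114401077, plus strand: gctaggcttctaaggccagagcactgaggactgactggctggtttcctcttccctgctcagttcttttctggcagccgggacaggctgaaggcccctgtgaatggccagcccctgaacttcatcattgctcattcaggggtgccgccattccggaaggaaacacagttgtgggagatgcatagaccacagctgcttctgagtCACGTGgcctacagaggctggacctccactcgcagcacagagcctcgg
Psap, upstream start site, chr10:60277378-60277627, plus strand: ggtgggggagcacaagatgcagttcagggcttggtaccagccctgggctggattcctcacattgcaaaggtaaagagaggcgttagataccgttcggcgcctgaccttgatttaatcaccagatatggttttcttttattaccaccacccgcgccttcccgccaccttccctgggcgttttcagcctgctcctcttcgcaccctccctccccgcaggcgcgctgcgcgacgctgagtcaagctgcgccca
Arsa, chr15:89477425-89477674, minus strand: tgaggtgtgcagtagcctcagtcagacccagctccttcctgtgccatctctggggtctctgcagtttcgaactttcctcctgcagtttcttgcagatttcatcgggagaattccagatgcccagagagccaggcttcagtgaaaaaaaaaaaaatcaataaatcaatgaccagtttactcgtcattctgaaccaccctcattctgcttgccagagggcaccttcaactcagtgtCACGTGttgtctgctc
CACGTG, which reads the same on both strands, was found in 2 of the 8 windows of these genes, 48 bases before the start of Glb1 and 16 bases before the start of Arsa. The windows searched were 300 bases long and add 50 bases after the start site. Among all 32851 RefSeq windows of this length, 7.15% hold it. The longer form TCACGTGA, which contains CACGTG, was found in 0 of the 8 windows and in 0.974% of all windows. The letters of Gm2a and Psap shown above hold neither form. The Gm2a stretch was 65.2% G and C, against 58.8% for Psap, 58.0% for Glb1 and 48.4% for Arsa.

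Per kilobase of exon, the scale on which genes can be compared, Psap was far above the rest. It had between 447.6 and 592.8 CPM per kilobase in the 6 libraries, where Hexa, the next gene, had between 20.96 and 25.51. Prosaposin alone held between 83.4% and 86.4% of all reads on the 8 genes, and by CPM it was number 38 of the 17421 tested genes. The summed CPM of the 8 genes, 1465 to 1594 in WT, 1873 to 1877 in F1 and 1725 to 1750 in F2, is therefore nearly a reading of Psap. Neu1 followed Hexa with 14.36 to 17.12 CPM per kilobase, and its range did not meet that of Hexa.
Gm2a, at 9.48 to 13.84 CPM per kilobase, and Asah1, at 9.55 to 10.98, overlapped. The order of these neighbours was not fixed, since Gm2a was above Asah1 in 5 of 6 libraries and below it in WT replicate 1. Arsa came next with 7.16 to 8.52 CPM per kilobase, below every value of Asah1. Galc, at 5.64 to 8.18, overlapped the range of Arsa, although Arsa was above it in 6 of 6 libraries. It also overlapped Glb1, which was lowest at 5.11 to 6.35. Galc was above Glb1 in 4 of 6 libraries and below it in 1 library each of F1 and F2. These levels depend on the annotated exon length, which runs from 1869 bp for Hexa to 4127 bp for Gm2a.

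**Figure D1:**
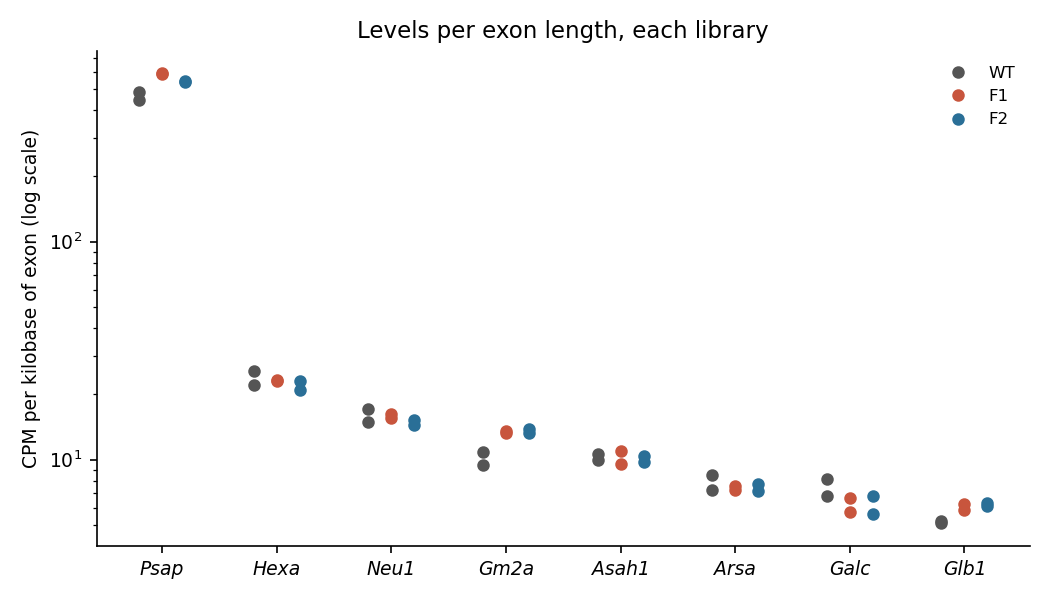
CPM per kilobase of annotated exon on a log axis for the 8 genes, 1 point for each library of WT, F1 and F2. Psap lies between 447.6 and 592.8, far above the other 7 genes, which lie between 5.11 and 25.51.

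The GM2 activator was above WT in every F1 and F2 library, and the hexosaminidase subunit overlapped WT. Gm2a had 39.1 and 44.8 CPM in the WT libraries, 54.5 and 55.8 in F1, and 57.1 and 54.5 in F2. All 4 libraries of F1 and F2 were above both WT libraries. The mean rose from 42.0 ± 4.0 CPM in WT (SD, n = 2) to 55.8 ± 1.89 CPM in F2, a log2 fold change of 0.41 (standard error 0.12, adjusted p = 0.00824 by edgeR's exact test). In F1 the mean was 55.2 ± 0.917 CPM and the log2 fold change 0.40 (standard error 0.12), with adjusted p = 0.0112 in edgeR.
The call in F2 stands close to the threshold. Without WT replicate 1, which had the lowest Gm2a value, the log2 fold change was 0.32 and the adjusted p 0.173 by edgeR, and the call was also lost without F2 replicate 1 (adjusted p = 0.145 by edgeR) and without F2 replicate 2 (adjusted p = 0.0507 by edgeR). The quasi-likelihood test gave an adjusted p of 0.0229 by edgeR. The 4 libraries with more Gm2a also had the higher astrocyte marker sums, 1665 to 2256 CPM against 1406 to 1462 in WT, and the part of this in the Gm2a values was not tested. In tissue RNA, more cells of a type and more RNA per cell cannot be told apart.
The study lists Gm2a among genes differentially expressed in both F1 and F2, in a group for the glycosphingolipid GM3 that it reports as all upregulated. Here Gm2a passed q under 0.01 in F2 only, and q under 0.05 in both. The list of the study was made from these same libraries, so the place of Gm2a among the higher genes is not independent evidence. Hexa, the partner of Gm2a in GM2 breakdown, had 47.7 and 40.9 CPM in WT, 43.2 and 42.9 in F1, and 39.2 and 43.0 in F2, and the 3 groups overlapped. Its log2 fold change was -0.04 in F1 (95% interval -0.30 to 0.22) and -0.11 in F2 (95% interval -0.37 to 0.15), with adjusted p = 0.881 and 0.617 by edgeR. Whether Gm2a and Hexa differed from each other in their change was not tested.

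The saposin precursor lay above WT in every F1 and F2 library, and neither difference passed the threshold in the exact test. Both libraries lay above both WT libraries for 29.8% of all tested genes in F1 and 31.0% in F2. F1 and F2 were set against the same WT libraries. Psap had 1330 and 1222 CPM in WT, 1618 and 1610 in F1, and 1491 and 1471 in F2. None of the F1 and F2 libraries came down to the WT values, and both F1 libraries were above both F2 libraries. In F1 the mean was 1614 ± 5.58 CPM (SD, n = 2) against 1276 ± 76.8 in WT, a log2 fold change of 0.34 (standard error 0.11, adjusted p = 0.0184 by edgeR). For F2 it was 1481 ± 13.6 CPM, with a log2 fold change of 0.22 (standard error 0.11, 95% interval -0.01 to 0.44, adjusted p = 0.169 by edgeR). The standard error exceeds what the library values show because the test takes most of its spread from other genes, with a coefficient of variation of 7.81% for Psap. By DESeq2 the F1 difference passed the threshold (adjusted p = 0.00606), and by edgeR's quasi-likelihood test it did not (adjusted p = 0.0513). Direct comparison of F2 with F1 gave a log2 fold change of -0.12 (95% interval -0.35 to 0.10, adjusted p = 0.914 by edgeR).

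**Figure D2:**
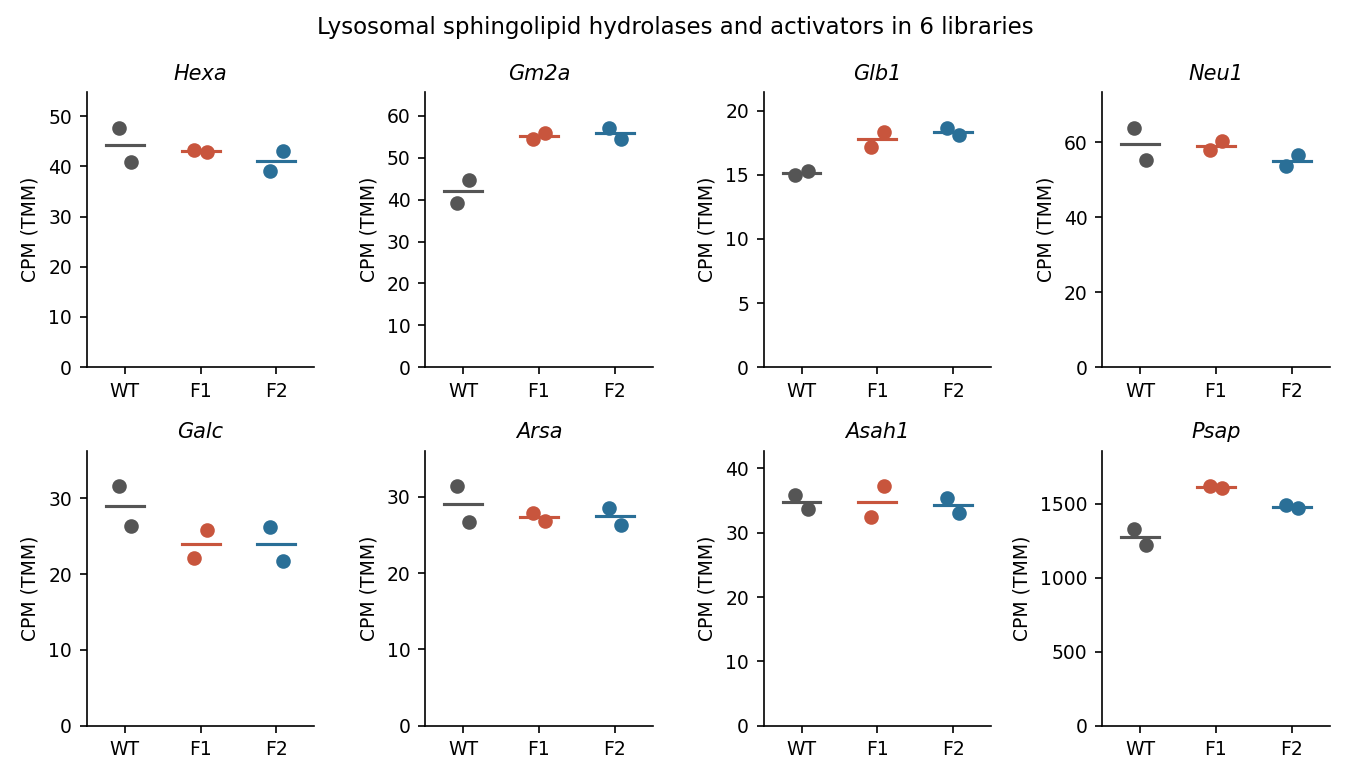
CPM after TMM scaling in each of the 6 libraries (points) with the group mean (line), 1 panel for each of the 8 genes and all vertical axes from 0. Gm2a, Glb1 and Psap have all 4 F1 and F2 points above the WT points, Galc has them below, and the other 4 genes overlap.

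Of the exoglycosidases of the protective complex, Glb1 lay above WT in F1 and F2 and Neu1 overlapped it, and neither passed the test. Glb1 had 15.0 and 15.3 CPM in WT, 17.2 and 18.3 in F1, and 18.7 and 18.1 in F2. Neither F1 nor F2 overlapped WT, although they overlapped each other, and the difference was small against the spread that the test assumes. The log2 fold change was 0.23 in F1 (95% interval -0.07 to 0.53, adjusted p = 0.3 in edgeR), beside 0.28 in F2 (95% interval -0.02 to 0.58, adjusted p = 0.197 by edgeR).
Glb1 rested on the fewest reads of the 8 genes, between 434 and 566 per library. Neu1 had 63.9 and 55.3 CPM in WT, 58.1 and 60.3 in F1, and 53.6 and 56.7 in F2. F1 and F2 each overlapped WT. Both F1 libraries of Neu1 were above both F2 libraries, and F2 against F1 did not pass the test (adjusted p = 0.971 by edgeR). Its log2 fold changes against WT were -0.01 in F1 (95% interval -0.25 to 0.23) and -0.11 in F2 (95% interval -0.36 to 0.13), with adjusted p = 0.975 and 0.58 by edgeR. Ctsa, which encodes the protective protein of the complex, had means of 99.3 CPM in WT, 82.1 in F1 and 82.7 in F2, and did not pass the threshold (adjusted p = 0.0686 and 0.082 by edgeR).

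The enzymes of myelin lipids had lower or similar values in F1 and F2. Galc had 31.6 and 26.4 CPM in WT, 22.2 and 25.8 in F1, and 26.2 and 21.8 in F2. All 4 libraries lay below both WT libraries, although F1 replicate 2 and F2 replicate 1 did so by less than 1 CPM. The log2 fold change was -0.28 in F1 (95% interval -0.59 to 0.04, adjusted p = 0.229 in edgeR), beside -0.27 in F2 (95% interval -0.59 to 0.04, adjusted p = 0.235 by edgeR). With 1 library left out, the F1 value of Galc ranged from -0.387 to -0.137. Its F2 value ranged from -0.408 to -0.132.
Arsa had 31.4 and 26.8 CPM in WT, 27.9 and 26.8 in F1, and 28.6 and 26.4 in F2. Its groups overlapped, and WT replicate 1 was the highest library for Arsa as for Galc, Hexa and Neu1. The log2 fold change of Arsa was -0.09 in F1 (95% interval -0.37 to 0.19) and -0.08 in F2 (95% interval -0.37 to 0.20), with adjusted p = 0.731 and 0.751 by edgeR.
Acid ceramidase showed the smallest difference. Asah1 had 35.9 and 33.8 CPM in WT, 32.4 and 37.2 in F1, and 35.4 and 33.1 in F2, and the 2 libraries of F1 enclosed all the others. Its change was -0.058% in F1 (95% interval -16.7% to 19.9%) and -1.66% in F2 (95% interval -18.1% to 18.1%).

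**Figure D3:**
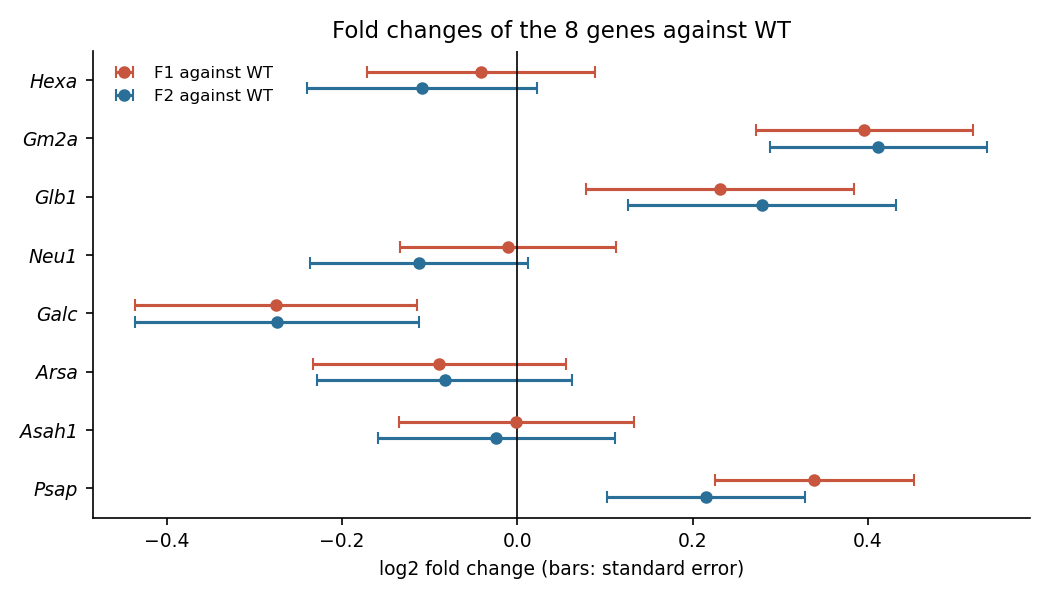
Log2 fold change against WT of the 8 genes in F1 and F2, with bars for 1 standard error of the exact test and a line at 0. Gm2a lies at 0.40 and 0.41 and Psap at 0.34 and 0.22, and Galc lies lowest at -0.28 and -0.27.

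In counts of libraries alone, 3 of the 8 genes had both F1 libraries above both WT libraries, where 29.8% of all tested genes did, and 1 had both below, where 30.6% did. The same 4 genes held these places in F2, 3 above against 31.0% of all genes and 1 below against 32.0%. F1 and F2 were set against the same 2 WT libraries, so these counts do not stand apart from each other. In the contrast of F2 with F1, 0 of the 8 genes passed the threshold, where 0.740% of all genes did, and 0 of the 8 had an unadjusted p under 0.05 by the exact or the quasi-likelihood test, where 8.64% and 9.01% of all genes did. The log2 differences between F2 and F1 ran from -0.12 for Psap to 0.05 for Glb1, and the widest of their 95% intervals, that of Galc, ran from -0.32 to 0.32.

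Among 71 other lysosomal genes of 6 lists, 13 passed the threshold in F1, 9 higher and 4 lower, and 10 passed in F2, 6 higher and 4 lower. These are 18.3% and 14.1% of the genes, beside the 12.3% and 12% of all tested genes. By direction, 3.77% of all tested genes passed as higher and 8.54% as lower in F1, and 3.86% and 8.10% in F2. These shares are the background for each lysosomal list below. Among the 71, 7 stand in lists of the study made from these libraries, and among the other 64 genes 8 passed in F1 and 6 in F2. The median log2 fold change of the 71 was 0.15 in F1 and 0.08 in F2. By the quasi-likelihood test, 6 passed in F1 and 3 in F2. Astrocyte and microglial marker sums were above WT in all F1 and F2 libraries, and their part in these values was not tested.
Of 10 other genes of lysosomal sphingolipid and sterol breakdown, 2 passed in F1 and 1 in F2, all higher. Scarb2, a receptor of the lysosomal membrane that carries enzyme to the organelle, had 16.2 and 17.2 CPM in WT, 24.7 and 36.1 in F1, and 39.7 and 31.5 in F2. Every F1 and F2 library lay above WT, and the F1 pair differed widely between themselves. Its log2 fold change was 0.86 in F1 (standard error 0.19, adjusted p = 0.000115 in edgeR), beside 1.09 in F2 (standard error 0.19, adjusted p = 4.81e-07 by edgeR). Smpd1, acid sphingomyelinase, was the other gene that rose in F1, from a mean of 52.8 CPM to 75.5 (adjusted p = 0.000244 by edgeR), and it had 68.9 CPM in F2 (adjusted p = 0.01 after rounding, not under the threshold). Smpd1 is in the lists of the study.

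Of 15 genes of glycosaminoglycan, glycoprotein and glycogen breakdown, 1 rose in F1 and the same 1 in F2. This was Arsb, arylsulfatase B, with 23.7 and 20.8 CPM in WT, 30.0 and 53.1 in F1, and 53.0 and 44.2 in F2. Its log2 fold change was 0.90 in F1 (adjusted p = 0.000469 in edgeR), beside 1.13 in F2 (adjusted p = 6.67e-06 by edgeR), and F1 replicate 1 was far nearer to WT than the other 3 libraries.
Of 14 proteases and ceroid genes, 4 rose and 1 fell in F1, and 3 rose and 1 fell in F2. Ctsd, the aspartic protease cathepsin D, rose from a mean of 159.2 CPM in WT to 226.9 in F1 and 211.4 in F2, with adjusted p = 0.000269 and 0.00522 (edgeR). Cln3, a lysosomal membrane protein, fell from 17.5 CPM to 11.4 in F1 and 10.8 in F2 (adjusted p = 0.00518 and 0.00181 by edgeR). Both are in the lists of the study, as are Ppt1 and Tpp1 of this group.
Of 15 genes of the lysosomal membrane and its acidification, 2 rose and 1 fell in F1, and 1 rose and 1 fell in F2. Lamp1, the main glycoprotein of the lysosomal membrane, rose from 180.9 CPM to 244.3 in F1 and 237.0 in F2 (adjusted p = 0.0015 and 0.00514 by edgeR). Clcn7, the lysosomal chloride and proton exchanger, which the study also lists, fell from 67.1 CPM to 48.9 in F1 and 46.9 in F2 (adjusted p = 0.00531 and 0.00138 by edgeR).
Of 6 genes for delivery of enzymes to the lysosome, 0 passed in F1 and 1 fell in F2. In F1, 2 of these 6 had an unadjusted p under 0.05, by the exact and by the quasi-likelihood test. Of all tested genes, 32.6% and 33.3% had one, so this count is near the background.
Of 11 genes of transcriptional and nutrient control, 2 fell in F1 and 1 in F2. Zkscan3, a zinc finger protein described as a repressor of lysosomal and autophagy genes, fell from 45.0 CPM to 29.7 in F1 and 30.2 in F2 (adjusted p = 0.000459 and 0.000833 by edgeR). Tfeb, the transcriptional activator of lysosomal genes, had means of 5.45 CPM in WT, 5.48 in F1 and 5.27 in F2 and did not pass the test (adjusted p = 1 and 0.925 by edgeR).
Of the 7 genes named here from these lists that passed in both comparisons, namely Scarb2, Arsb, Ctsd, Cln3, Lamp1, Clcn7 and Zkscan3, only Scarb2 passed in both by the quasi-likelihood test. Both comparisons use the same WT libraries.

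**Figure D4:**
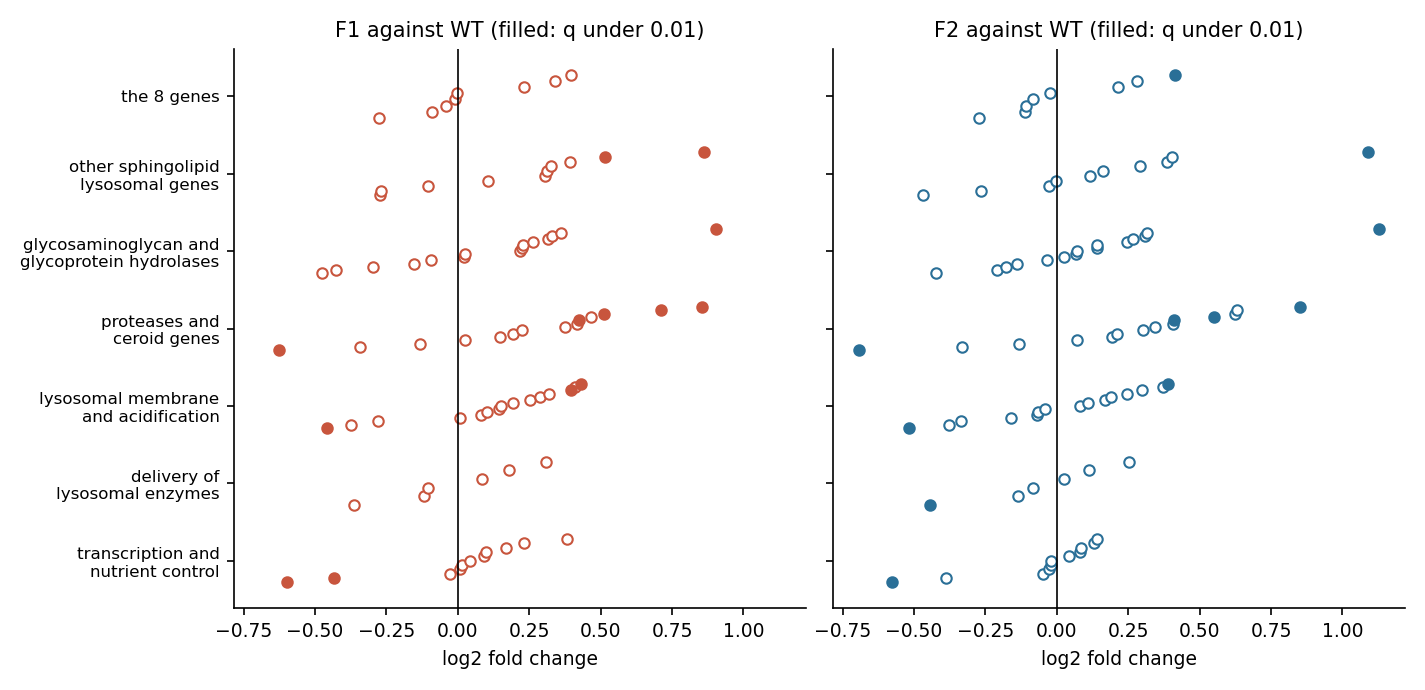
Log2 fold change against WT of each gene of the 8 and of the 6 lysosomal lists, F1 at left and F2 at right, with filled points for q under 0.01 in the exact test. Of the 8 genes only Gm2a in F2 is filled, and among the 71 others 13 points are filled in F1 and 10 in F2.

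By the Pearson correlation of log2 CPM over the 6 libraries, the genes most like the mean of the 8 were Etnk1 (r = 0.996), Cttn (0.994), Pank2 (0.99), Sf3b3 (0.99) and Dnpep (0.986), out of 10066 genes with a mean of at least 10 CPM. This is a description over few points that share their libraries, and it carries no test. The mean profile of the 8 genes, centred on the log2 scale, was lowest in WT replicate 2 at -0.09 and highest in F1 replicate 2 at 0.07. WT replicate 1, at 0.02, lay among the F1 and F2 libraries, and the profile did not separate WT from the other groups.

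Markers of cells other than granule cells were present. Among the 7 lists of cell types, only the astrocyte and microglia lists had summed levels above both WT libraries in all 4 libraries of F1 and F2. Granule cell markers such as Prox1, with a mean of 273.4 CPM in WT, were present, and no marker on the 7 lists of cell types was at 0. Summed over 12 markers, oligodendrocyte RNA stood at 1155 to 2091 CPM in WT, 2362 to 3143 in F1 and 1630 to 3057 in F2, and 4 of the 12 passed the threshold as higher in F1 and 2 in F2. The 8 astrocyte markers summed to 1406 to 1462 CPM in WT, 1665 to 2039 in F1 and 1858 to 2256 in F2, with 1 higher in F1 and 5 in F2. Over all tested genes, 3.77% passed as higher and 8.54% as lower in F1, and 3.86% and 8.10% in F2. These shares are the background for every marker list. All 12 oligodendrocyte and all 8 astrocyte markers had means above WT in F1 and in F2. By the exact test, 11 oligodendrocyte markers in F1 and 9 in F2 had an unadjusted p under 0.05. By the quasi-likelihood test, 8 and 7 did. For astrocytes both tests gave 6 in F1 and 8 in F2. Of all tested genes, 32.6% in F1 and 32.4% in F2 had one by the exact test, and 33.3% and 33.2% by the quasi-likelihood test.
Astrocyte signal was above WT in the same 4 libraries in which Gm2a, Glb1 and Psap were higher, and so was microglial signal. The 10 microglial markers summed to 141.8 to 143.5 CPM in WT, 170.9 to 194.0 in F1 and 187.9 to 216.8 in F2, with 0 passing in F1 and 5 higher in F2. In F1, 5 of the 10 had an unadjusted p under 0.05 by the exact test and 5 by the quasi-likelihood test. Of all tested genes, 32.6% and 33.3% had one. In F2, 8 of the 10 did by either test, against 32.4% and 33.2% of all tested genes. The 6 granule cell markers summed to 952.7 to 955.1 CPM in WT, 809.4 to 947.1 in F1 and 1042 to 1120 in F2, and 1 of them, Plk5, fell in both.
The part of glial RNA in the values of Gm2a, Psap and the other genes was not tested. WT replicate 1 was the highest library for Galc and Arsa, whose products act on myelin lipids, and also for Hexa and Neu1. The same library had the lowest sum of oligodendrocyte markers, and a link was not tested. The remaining lists were endothelial, with 0 of 6 markers passing in F1 and 1 higher in F2, interneuron, with 1 of 6 and 2 of 6 higher, and mossy and pyramidal cells, with 0 of 6 in either. The endothelial markers summed to 94.5 and 107.2 CPM in WT, 104.2 and 124.5 in F1, and 131.7 and 125.7 in F2, so that both F2 libraries were above WT and F1 overlapped it. By the exact test, 2 endothelial markers in F1 and 5 in F2 had an unadjusted p under 0.05. So did 2 mossy and pyramidal markers in F1 and 1 in F2, and the quasi-likelihood test gave the same counts. Of all tested genes, 32.6% in F1 and 32.4% in F2 had one by the exact test. By the quasi-likelihood test, 33.3% and 33.2% did.

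**Figure D5:**
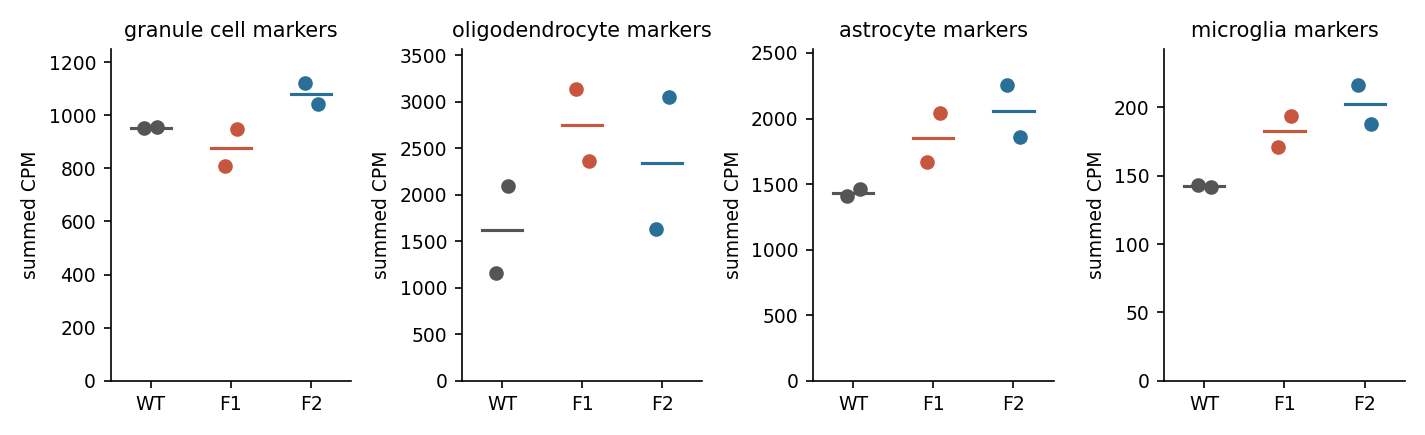
Summed CPM of the markers of granule cells, oligodendrocytes, astrocytes and microglia in each library (points) with group means (lines), vertical axes from 0. Astrocyte and microglia sums are higher in all F1 and F2 libraries than in WT, and oligodendrocyte sums overlap between WT and F2.

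Reads counted on genes ran from 26358165 to 33727936 per library. The share of uniquely aligned reads that matched no gene under the counting rule was 17.7% and 20.7% in WT, 13.8% and 12.2% in F1, and 13.9% and 17.4% in F2, so that every F1 and F2 library was below both WT libraries, and its part in the results was not tested. At this depth the number of libraries, more than counting, limited the precision.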

How the data were processed

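Per the labels and the methods of the study, poly(A) RNA was sequenced from TruSeq libraries as single-end reads, aligned to mm9 with TopHat to known junctions only, and counted per gene with HTSeq in intersection-strict mode. The authors deposited read counts, without normalization. Non-uniquely aligned reads and reads reaching outside exons are not in the counts. Rows that name no gene held between 35.3% and 46.6% of all lines of a library and were left out.

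Counts were filtered with filterByExpr, TMM-scaled and then compared by the exact test of edgeR 4.0.16 (R 4.3.3), with common and tagwise dispersion over all 6 libraries and Benjamini-Hochberg adjustment over 17421 genes. The q of 0.01 is the one in the results of the study, whose methods give 0.05. The common dispersion of 0.0113 is a coefficient of variation of 10.6%. Standard errors follow from counts and dispersion, and 95% intervals are 1.96 standard errors either way. DESeq2 1.42.0 was an alternative. On simulated counts for F1 against WT (17148 genes, 200 changed by a factor of 2), the exact test recovered 77.5% of the changed genes, and 2.52% of its calls were false. The largest change against WT among the genes followed here was smaller, a fold of 1.331 for Gm2a in F2. In the data, 2144 of 17421 genes passed for F1 against WT, far more than the 200 changed in the simulation. Recovery and false calls at changes as small as those of the genes followed here were not tested. Replicates were not duplicates: chi-square per degree of freedom between the 2 libraries of a group was 14.3 or more. Exon lengths and positions come from GENCODE M1.

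The 8 genes, the lists and the markers were chosen with earlier results of these data known. Named from each list are genes past q under 0.01 in both comparisons, at most 4 a list, of which 1 is not reported here, and the 5 genes most like the mean of the 8. Smpd1, Ctsa, Tfeb and Prox1 were added for their roles after their values were seen. The 12 bisulfite samples were not used here.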

Additional observations from a re-analysis of the deposited data

How the results depend on the processing

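Of 16 fold changes of the 8 genes against WT, each under 14 alternatives, 198 values kept their direction and their side of the threshold. Another 17 turned direction, 8 lost the threshold and 1 gained it. All 8 losses were of Gm2a in F2, the only call of the main fit. Most of the 198 values were of genes that stayed short of the threshold. For F1, 0 genes passed by the exact test, 1 by DESeq2 (Psap) and 2 at q under 0.05. For F2, 1 gene passed (Gm2a), and 0 passed by the quasi-likelihood test without or with the replicate block, by DESeq2 (adjusted p = 0.0103), with total counts in place of TMM (0.0137 by edgeR) or with a minimum of 1 CPM in 2 libraries (0.0103 by edgeR). Leaving out single libraries gave 0 genes in F1 and 0 to 1 in F2. Over these settings the adjusted p of Gm2a in F2 lay between 0.00537 and 0.173, and its log2 fold change between 0.32 and 0.52.

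Counts of the 71 other lysosomal genes moved more. In F1 they went from 13 to 6 by the quasi-likelihood test, 2 with the replicate block, 22 at q under 0.05 and 2 to 9 with a library left out. In F2 they went from 10 to 3 by the quasi-likelihood test, 3 with the replicate block, 16 with dispersion from the 2 groups compared, 21 at q under 0.05 and 2 to 15 with a library left out. In F1, 3 were left without WT replicate 1, 5 without WT replicate 2, 2 without F1 replicate 2 and 8 without F2 replicate 2. In F2, 2 were left without WT replicate 1, 3 without F2 replicate 1 and 2 without F2 replicate 2. The cause was not tested.

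Direction turned in 17 cases, all of them short of the threshold. With single libraries left out, the log2 fold change of Hexa was -0.136 to 0.077 in F1 and -0.205 to 0.012 in F2, that of Neu1 -0.101 to 0.100 and -0.202 to 0.002, that of Arsa -0.188 to 0.033 and -0.182 to 0.043, and that of Asah1 -0.097 to 0.108 and -0.067 to 0.029. In all 8 of these the sign turned without WT replicate 1. Without a filter on low counts, Neu1 in F1 was at 0.012 and Asah1 in F1 at 0.023, and Asah1 in F1 was at 0.004 by DESeq2 and with RLE normalization.

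The numbers of the libraries did not pair them: the differences between replicates 1 and 2 correlated at -0.0269 (WT with F1), -0.083 (WT with F2) and -0.182 (F1 with F2), so the replicate block is given only as an alternative. With 2 libraries a group, the spread of a gene is borrowed from other genes, and this limits the precision more than depth does.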
